A study of Mus musculus with 27 samples.

Results

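The Notch pathway was followed through cardiotoxin injury and repair of mouse muscle through 10 genes, the receptors Notch1, Notch2 and Notch3, the ligands Dll1, Dll4 and Jag1, the transcriptional targets Hes1, Hey1 and Heyl, and the pathway inhibitor Numb. They were chosen by name, and all 10 were found among the 55852 gene entries of the table of injured muscle and the 55677 entries of the table that holds the uninjured control. All 10 passed the filter on low values in both tables (at least 1 TPM in at least 3 libraries), as did 15718 and 13041 genes in all. TPM, a level per length of transcript, has 1 fixed sum in each library.

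The injured muscle was gastrocnemius, taken on D1, D4, D7 and D14 after an injection of cardiotoxin (CTX), a snake venom toxin that kills muscle fibres and starts their replacement. It came from male wild-type mice (WT, C57BL/6J) and from mice with a global deletion of Gsdme (KO), the gene for gasdermin E, a pore-forming protein that runs pyroptotic cell death. The labels name the second group KO in the titles and Gsdme knockdown in the genotype field. The uninjured group (WT control) was muscle of WT mice without the toxin, which the study took from the opposite leg 1 day after injury and whose labels name the thigh. Each of the 9 groups held 3 libraries of whole muscle, 27 in all, and the ages of the mice are not given in the sources used here. The deletion is not limited to a cell type, and in whole muscle fewer cells of a type and less RNA per cell cannot be told apart.

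Notch is a receptor that is cut after it binds a ligand on a neighbouring cell. Its freed inner part enters the nucleus, joins the DNA-binding protein RBPJ and turns on genes of the Hes and Hey families, which encode repressors. In muscle the pathway is known for holding satellite cells, the stem cells of the fibre, in an undifferentiated state. In vessels Dll4, Notch1 and Hey1 are known from endothelium, and Notch3 and Heyl from the mural cells, pericytes and smooth muscle, that wrap it.

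The deleted gene was read first as a check of the labels. Gsdme held on D1 3.59 ± 1.11 TPM in WT muscle and 1.66 ± 0.459 TPM in KO muscle (SD, n = 3 in each group here and below). On D14 the levels were 1.98 ± 0.448 TPM in WT muscle and 1.67 ± 0.356 TPM in KO muscle, and the libraries overlapped. Gsdme transcripts were thus counted in every KO library, and no library went against its label on D1, D4 or D7. The KO minus WT difference averaged over the 4 days was -0.55 on the log2(TPM + 1) scale (limma, adjusted p = 0.0664). All 8 markers of mature muscle fibre averaged at least 1 TPM in all groups. The RNA of 2 injured libraries stood apart from their groups in white blood cell markers. The 8 leukocyte markers summed to 433 TPM in KO D4 replicate 2, against 3032 to 3601 TPM in the other KO D4 libraries, and to 814 TPM in WT D1 replicate 3, against 2434 to 3785 TPM in the other WT D1 libraries. The 6 Schwann cell markers summed to 1711 TPM in KO D4 replicate 2, against 242 and 486 TPM in the rest of its group, and to 389 TPM in WT D1 replicate 3, against 156 and 169 TPM. The 6 acinar pancreas markers were low but likewise apart, at 53.3 TPM against 11.6 and 14.6 TPM, and at 31.5 TPM against 3.79 and 5.70 TPM. WT D1 replicate 3 also had the highest sum of fibre markers of its group, 152791 TPM against 75770 and 92451 TPM. WT D4 replicate 1 had the lowest fibre sum of its group, 39482 TPM against 78654 and 82132 TPM. Its satellite cell and myoblast markers summed to 732 TPM, against 427 and 450 TPM. KO D7 replicate 2 had a leukocyte sum of 456 TPM, against 1143 and 1187 TPM, and no call of a member changed without it. The number of reads per library is unknown, and the libraries held 12329 to 14704 genes at 1 TPM or more.

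The members lie on 6 chromosomes (mm10, the build that the submitters' notes name, which is GRCm38; positions from GENCODE M21), and all are annotated as protein coding. Notch1 spans chr2:26457903-26516663 on the minus strand, and Dll4 (chr2:119325784-119335962, plus strand) and Jag1 (chr2:137081456-137116644, minus strand) lie on the same chromosome. Notch2 spans chr3:98013527-98150361 on the plus strand and Hey1 chr3:8663359-8667256 on the minus strand. Notch3 spans chr17:32120820-32166852 and Dll1 chr17:15367354-15376872, both on the minus strand. Heyl lies at chr4:123233556-123249875 and Hes1 at chr16:30064384-30067796, both on the plus strand, and Numb at chr12:83794034-83921934 on the minus strand.

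RefSeq promoter windows (GRCm38.p6, 250 bases before to 50 bases after a start site) matched 7 of the 10 members with 10 windows. Hes1, Hey1 and Heyl had no entry. None of the 10 windows held GTGGGAA or its reverse complement TTCCCAC, the core that RBPJ binds, which 6.38% of all 32851 windows held. E-boxes, written CANNTG and the same on both strands, were in 5 of the 10 windows and in 72.3% of all windows; this motif was added after the data had been seen. The 250 bases before the start of Dll1 and Notch3, the ligand and the receptor that rose together on D4, and of Dll4, the ligand with the latest peak, follow on the gene's own strand, from chr17:15376933-15377182, chr17:32166891-32167140 and chr2:119325534-119325783. E-boxes are in capitals.
Dll1: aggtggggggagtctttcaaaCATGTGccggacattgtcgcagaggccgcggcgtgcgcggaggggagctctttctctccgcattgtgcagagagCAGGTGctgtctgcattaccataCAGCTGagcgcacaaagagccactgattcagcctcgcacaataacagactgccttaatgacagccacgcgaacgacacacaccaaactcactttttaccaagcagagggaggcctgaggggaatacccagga
Notch3: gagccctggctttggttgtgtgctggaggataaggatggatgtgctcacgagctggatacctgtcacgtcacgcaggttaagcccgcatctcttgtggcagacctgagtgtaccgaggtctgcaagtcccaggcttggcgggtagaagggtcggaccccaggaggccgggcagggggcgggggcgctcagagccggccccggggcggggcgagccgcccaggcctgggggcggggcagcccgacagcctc
Dll4: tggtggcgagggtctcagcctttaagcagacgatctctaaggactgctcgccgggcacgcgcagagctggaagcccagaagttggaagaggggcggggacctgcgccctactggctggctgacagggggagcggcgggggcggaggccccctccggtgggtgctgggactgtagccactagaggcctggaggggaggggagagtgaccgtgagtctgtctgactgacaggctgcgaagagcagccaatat
The Dll1 stretch holds 3 E-boxes, and the Notch3 and Dll4 stretches hold none. Dll1 has another window, not printed, at chr17:15375824-15376073 with 1 E-box. The RefSeq starts used for Dll1 and Notch3 lie outside the GENCODE spans given above.

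The members were expressed at low to moderate levels throughout. Group means of the injured libraries ran from 3.23 TPM for Heyl on D1 in WT to 25.0 TPM for Notch3 on D4 in WT. The SD of Notch3 was 5.65% to 21.3% of the mean over the 8 injured groups (median 12.9%), that of Notch2 19.5% to 52.8% (median 34.8%) and that of Notch1 7.08% to 37.5% (median 36.5%). The plot of TPM by group shows every library.

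**Figure D1:**
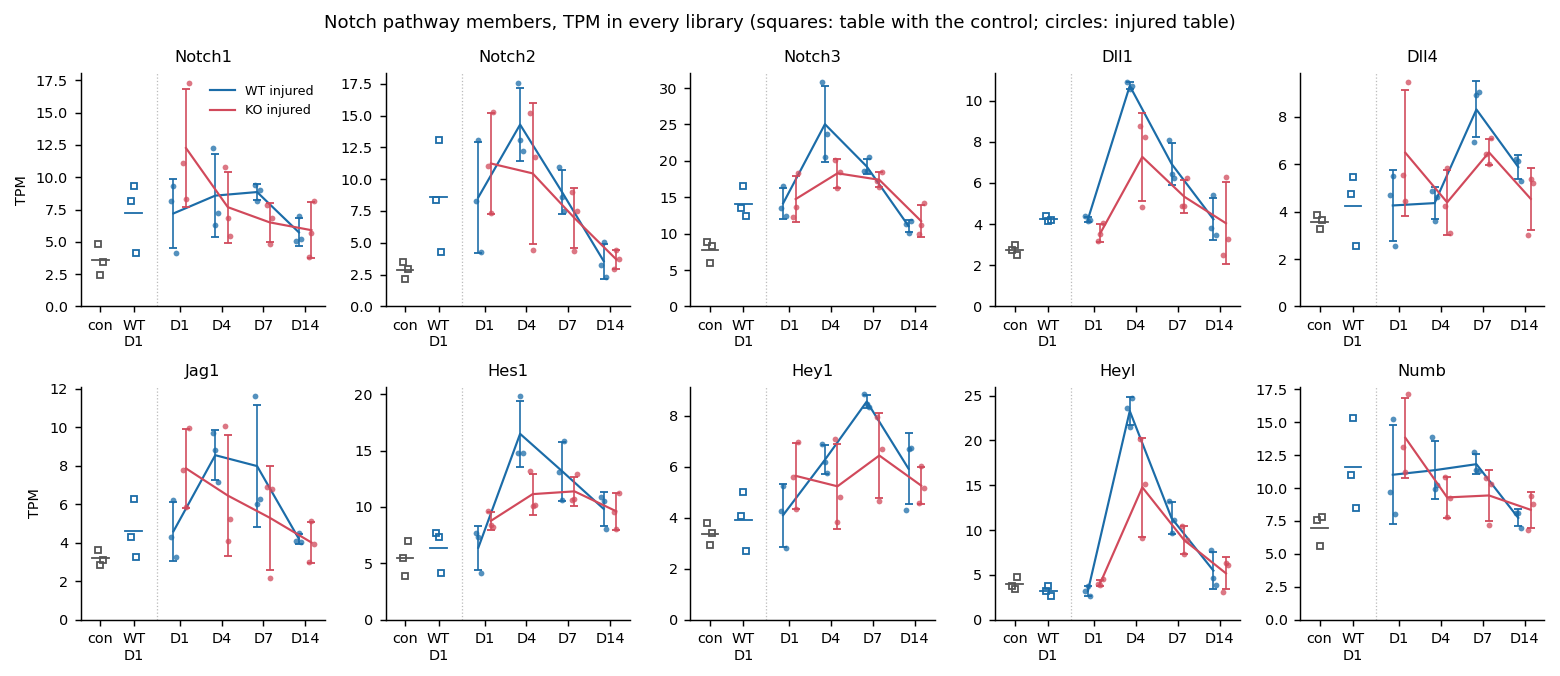
TPM of the 10 members in every library (y axes from 0) by sampling day (x axes), with WT in blue, KO in red, lines through group means, bars for 1 SD (n = 3) and, left of the dotted line, open squares for the separately quantified WT control and WT D1 libraries. Heyl, Dll1, Notch3 and Hes1 peak in WT on D4, with Heyl at 23.3 TPM, and Dll4 and Hey1 peak in WT on D7, at 8.31 and 8.55 TPM.

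The first comparison asked how the pathway stood 1 day after injury. In the table that holds both groups, Notch2, Notch3 and Dll1 rose from WT control to WT D1 and no member fell by the test. Notch2 read 2.12, 2.96 and 3.46 TPM in the control libraries and 8.33, 13.1 and 4.31 TPM on D1. Every injured library lay above every control library, although WT D1 replicate 3, at 4.31 TPM, came close. The log2 difference was 1.22 (SE 0.35, limma adjusted p = 0.0173). Notch3 stood at 7.70 ± 1.57 TPM in the control and 14.1 ± 2.09 TPM on D1, a log2 difference of 0.81 (SE 0.21, adjusted p = 0.0127). Dll1, a ligand that is also a Notch target in some tissues, went from 2.74 ± 0.236 to 4.24 ± 0.118 TPM, a log2 difference of 0.49 (SE 0.19, adjusted p = 0.0494). The Dll1 call was lost when any of the 6 libraries was left out, that of Notch2 without WT D1 replicate 1 or WT control replicate 2, and that of Notch3 without WT control replicate 2. The labels do not say which control and injured muscles came from the same mouse. Without WT D1 replicate 3, Notch1, Numb and Jag1 were called higher beside Notch2 and Notch3. Of the 13041 tested genes 9121 were then called in either direction, against 7965 with all libraries.

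These 3 calls of 10 members stood in a comparison in which most genes moved up, with 55.4% of all tested genes called higher and 5.64% called lower. Under 3 other scalings those shares were 19.6% to 32.6% and 12.7% to 21.2%. The median gene shifted by 0.66 on the log2 scale, more than the members' median of 0.44. When the libraries were brought to a common scale by median-of-ratios factors, by quantiles or by leaving out the 50 most abundant genes, none of the 10 members was called higher. Heyl was then called lower under all 3 scalings, with log2 differences of -0.84, -0.98 and -0.71. Hey1 was called lower under median-of-ratios and quantile scaling, and Dll4 and Hes1 under quantile scaling. As deposited, Heyl held 3.95 ± 0.736 TPM in the control and 3.23 ± 0.575 TPM on D1, and the groups overlapped. The 50 most abundant genes took 57.4% to 60.7% of all TPM in the control libraries and 32.7% to 48.1% in the WT D1 libraries. The leukocyte sum was 147 to 193 TPM in the control and 814 to 3788 TPM on D1, and its part in the members' values was not tested. Of the members not called as deposited, Notch1 had the largest ratio of means, with 3.55 ± 1.19 TPM in the control and 7.21 ± 2.70 TPM on D1, and Numb had 7.00 ± 1.22 and 11.6 ± 3.46 TPM without overlap. Hes1 had 5.46 ± 1.55 and 6.39 ± 1.96 TPM, and Hey1 3.38 ± 0.431 and 3.92 ± 1.17 TPM.

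The next comparisons followed WT muscle from day to day, and each day's libraries enter both the step before and the step after it. Of the 10 members 4 rose from D1 to D4 and none fell, where 14.6% of all tested genes rose and 5.27% fell (11.4% to 12.5% and 11.6% to 13.3% under the 3 scalings). Heyl, a bHLH repressor of the Hey family, rose most. Its WT libraries read 3.21, 3.81 and 2.66 TPM on D1 and 23.6, 21.5 and 24.7 TPM on D4. The lowest D4 library lay above 5 times the highest D1 library, and the means differed 7.22-fold. The log2 difference was 2.53 (SE 0.26, limma adjusted p = 1.21e-05). Hes1, another bHLH repressor and a Notch target in many tissues, read 7.66, 7.35 and 4.12 TPM on D1 and 14.8, 19.9 and 14.8 TPM on D4, a log2 difference of 1.27 (SE 0.20, adjusted p = 0.000336). Its lowest D1 value belonged to WT D1 replicate 3.

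The ligand Dll1 read 4.37, 4.13 and 4.21 TPM on D1 and 10.9, 10.6 and 10.7 TPM on D4. These were among the tightest triplicates of any member, and the log2 difference was 1.16 (SE 0.23, adjusted p = 0.00155). The receptor Notch3 read 13.5, 16.5 and 12.5 TPM on D1 and 30.8, 20.6 and 23.8 TPM on D4, a log2 difference of 0.77 (SE 0.17, adjusted p = 0.00304). None of the 4 rises overlapped between the days, and all 4 were called under each of the 3 scalings and without WT D1 replicate 3. The share of all genes without overlap was counted only between genotypes. Overlap between days or against the control is therefore a description only, here and below. Fitted on the 6 libraries compared alone, Notch3 was not called (adjusted p = 0.0858). The members' median difference was 0.77 and that of all genes 0.17.

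The other 6 members were not called between D1 and D4. Jag1, a ligand of vessel and stromal cells, had 4.59 ± 1.52 TPM on D1 and 8.55 ± 1.28 TPM on D4 without overlap (adjusted p = 0.108). Hey1 had 4.10 ± 1.23 and 6.27 ± 0.561 TPM, also without overlap (adjusted p = 0.102). Notch2 had 8.57 ± 4.39 and 14.3 ± 2.86 TPM. Notch1, Dll4 and Numb, a membrane adaptor that targets Notch for removal, differed by 0.23, 0.06 and 0.07 on the log2 scale.

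From D4 to D7 the WT members parted. Heyl fell from 23.3 ± 1.62 to 11.3 ± 1.78 TPM, by 0.99 on the log2 scale (SE 0.26, adjusted p = 0.0234), and Dll4, the ligand of sprouting vessels, rose from 4.36 ± 0.660 to 8.31 ± 1.18 TPM, by 0.80 (SE 0.26, adjusted p = 0.0484). The Dll4 libraries read 4.85, 3.61 and 4.62 TPM on D4 and 6.95, 8.93 and 9.06 TPM on D7, without overlap. In all, 3.04% of tested genes were called higher and 9.31% lower over this step (5.9% to 8.2% and 2.54% to 6.66% under the 3 scalings), and the median gene moved by -0.24. The 1941 calls became 210 without WT D4 replicate 1, 268 without WT D7 replicate 2 and 216 without WT D7 replicate 3. The Dll4 call stood under all 3 scalings, but it was lost when any of the 6 libraries was left out. The Heyl call was lost when WT D4 replicate 1 or 3 or WT D7 replicate 2 or 3 was left out, and with the 50 most abundant genes removed (adjusted p = 0.0624). Hey1 had 6.27 ± 0.561 TPM on D4 and 8.55 ± 0.250 TPM on D7, again without overlap (log2 difference 0.40, adjusted p = 0.219), and it was called higher under each of the 3 scalings.

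From D7 to D14 all 10 members had lower WT means, and Notch2, Notch3, Dll1 and Heyl fell by the test. Notch2 went from 9.01 ± 1.76 to 3.55 ± 1.38 TPM (log2 difference -1.17, SE 0.39, adjusted p = 0.0302). Notch3 went from 19.2 ± 1.09 to 11.04 ± 0.856 TPM (-0.75, SE 0.17, adjusted p = 0.00788). Dll1 (-0.61, adjusted p = 0.0492) and Heyl (-0.97, adjusted p = 0.0141) made up the 4. Over the same step 30.9% of all genes were called lower and 0.923% higher (7.79% to 15.1% and 2.68% to 5.61% under the 3 scalings), and the median gene moved by -0.45, against -0.58 for the members. The 5000 calls over all genes became 286 without WT D14 replicate 3 and 631 without WT D7 replicate 1. None of the members was called under median-of-ratios or quantile scaling, and Heyl alone was called with the 50 most abundant genes removed. The Dll1 call was lost without WT D7 replicate 1, 2 or 3 or WT D14 replicate 1 or 3, that of Notch2 without WT D7 replicate 1 or 2 or WT D14 replicate 1 or 3, and that of Heyl without WT D7 replicate 1 or WT D14 replicate 3. On D14 the summed leukocyte markers were 159 to 559 TPM in WT, against 1296 to 1779 TPM on D7. Their part in these values was not tested.

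The same steps were read in KO muscle. From D1 to D4 Heyl and Dll1 rose in KO and no member fell, where 7.18% of all genes rose and 12.2% fell. Heyl read 3.99, 3.91 and 4.51 TPM on D1 and 20.1, 9.10 and 15.1 TPM on D4, a log2 difference of 1.56 (SE 0.26, limma adjusted p = 0.000758). The lowest of the D4 values, 9.10 TPM, came from KO D4 replicate 2, the library with few leukocyte transcripts, and without it the difference was 1.85. Dll1 read 3.18, 3.50 and 4.04 TPM on D1 and 8.77, 4.81 and 8.22 TPM on D4 (log2 difference 0.82, SE 0.23, adjusted p = 0.019). Its call was lost without KO D1 replicate 1, KO D4 replicate 1 or KO D4 replicate 3, and neither member was called when only the 6 libraries compared were fitted. Hes1 read 9.67, 8.44 and 8.18 TPM on D1 and 13.2, 10.04 and 10.1 TPM on D4 in KO (log2 difference 0.31, adjusted p = 0.28), and Notch3 went from 14.7 ± 3.14 to 18.3 ± 1.98 TPM (0.31, adjusted p = 0.19). Numb had 13.8 ± 3.02 TPM on D1 and 9.29 ± 1.56 TPM on D4, a difference of -0.52 (adjusted p = 0.0864). Under the scalings Notch3 was called higher in 2 of 3 (median-of-ratios and quantile) and Numb lower in 2 of 3 (median-of-ratios and the 50 most abundant genes removed). The calls over all genes, in either direction, also went from 3049 of 15718 to 4134 (median-of-ratios) and 4204 (quantile). With the 50 most abundant genes removed they were 4187 of 15668.

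No member was called in KO from D4 to D7, where 0% of all genes were called higher and 0% lower (limma); 9.89% of all genes and 1 member, Heyl, had an unadjusted p under 0.05. Without KO D4 replicate 2, however, 1375 genes were called over this step, and Heyl among them (log2 difference -0.91, adjusted p = 0.0344). Heyl stood at 14.8 ± 5.53 TPM on D4 and 8.88 ± 1.54 TPM on D7 with all libraries. Dll4 had 4.39 ± 1.38 TPM on D4 and 6.50 ± 0.554 TPM on D7 (0.51, adjusted p = 0.539), without overlap. From D7 to D14 no member was called either, with 0.0827% of genes called higher and 0.477% lower (0.3% to 0.98% and 1.08% to 1.94% under the 3 scalings). An unadjusted p under 0.05 was found for 2 members and for 19.3% of all genes (limma). The 88 calls became 381 without KO D7 replicate 2 and 10 to 37 without any other library of this step. Notch3 went from 17.4 ± 1.06 to 11.7 ± 2.20 TPM (-0.55, adjusted p = 0.125) and Heyl from 8.88 ± 1.54 to 5.17 ± 1.78 TPM (-0.71, adjusted p = 0.165), both without overlap.

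**Figure D2:**
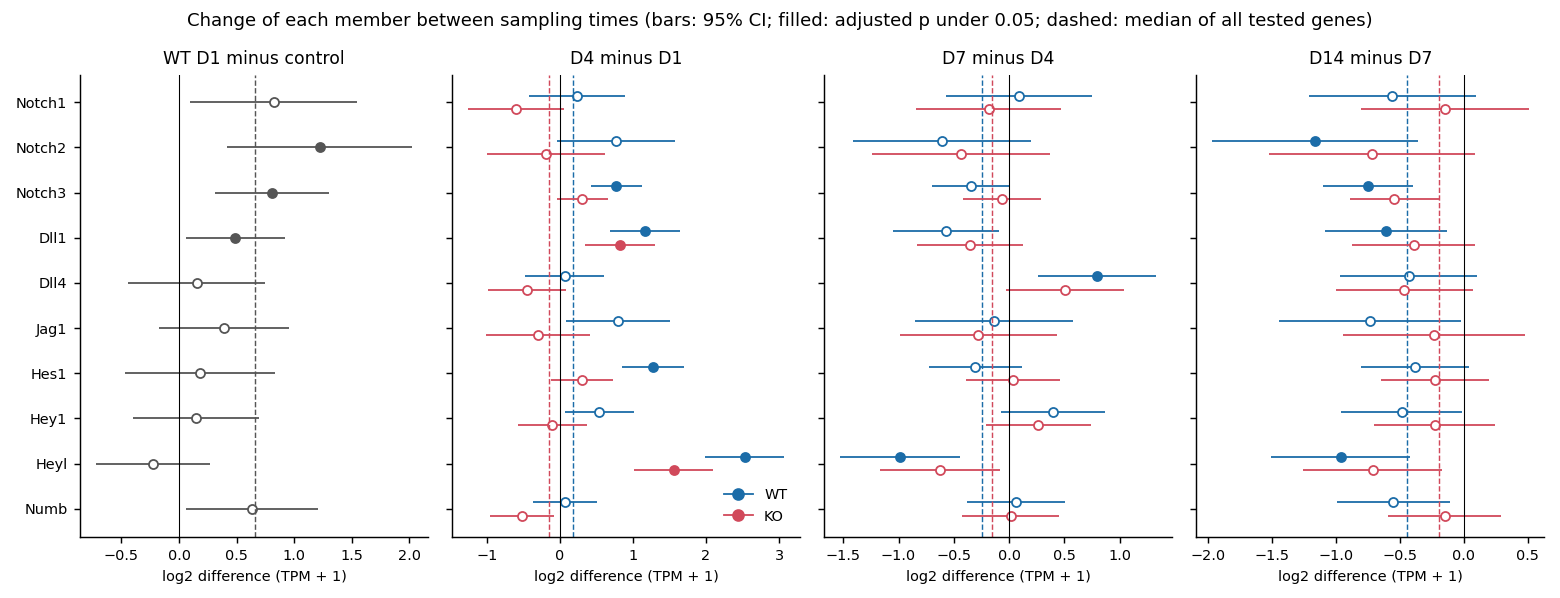
Difference on the log2(TPM + 1) scale (x axes) of each member (y axis) between consecutive sampling times, with 95% confidence intervals as bars, filled points for an adjusted p under 0.05 and dashed lines at the median of all tested genes. From D1 to D4 Heyl has the largest difference in both genotypes, 2.53 in WT and 1.56 in KO, and from D7 to D14 the WT points lie around the all-gene median of -0.45.

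The D1 to D4 change was set against itself between genotypes, a test added after the data had been seen. The change in KO minus that in WT was negative for all 10 members. The fitted change itself was positive for all 10 members in WT and for 4 of them in KO. Of the 15718 genes 0%, no member among them, passed the test (limma). The median difference of the changes was -0.38 over all genes, and 23.3% of all genes had an unadjusted p under 0.05. Of the members 3 were in that share. The KO minus WT difference of the changes was -0.96 for Hes1 (SE 0.29, unadjusted p = 0.0032, adjusted p = 0.204), -0.97 for Heyl (SE 0.37, unadjusted p = 0.0157, adjusted p = 0.204) and -1.10 for Jag1 (SE 0.48, unadjusted p = 0.0335, adjusted p = 0.205). Without KO D4 replicate 2 the difference was -0.90 for Hes1, -0.68 for Heyl and -0.87 for Jag1, and without WT D1 replicate 3 it was -0.72, -0.87 and -0.92.

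The main question of the design was whether loss of Gsdme moved the genes at matched days. By the fitted log2 difference 9 of the 10 members were higher in KO on D1, Dll1 being the exception, and all 10 were lower on D4 and D7. On D14 Notch2, Notch3 and Numb were higher, by less than 0.1 each, and all 3 turned lower under median-of-ratios and quantile scaling, as Notch3 on D1 did under all 3 scalings. No member was called on any day (limma), where the calls made up 0.00636% of all genes on D1 and 0% on each later day. Before correction, 2 members on D1 and 4 on D4 had a p under 0.05 and none had one later, beside 5.38%, 22.7%, 3.06% and 2.06% of all genes. The median of the members went from 0.40 on D1 to -0.42 on D4, -0.32 on D7 and -0.05 at the end, and that of all genes from 0.09 to -0.28, -0.19 and 0.08. On D4 the all-gene median was -0.17 without WT D4 replicate 1 and -0.11 without KO D4 replicate 2.

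Among the targets, Heyl on D4 had 23.3 ± 1.62 TPM in WT muscle and 14.8 ± 5.53 TPM in KO muscle. The highest KO library, at 20.1 TPM, lay below the lowest WT library, at 21.5 TPM. The difference was -0.68 (95% CI -1.23 to -0.14, adjusted p = 0.212), and without KO D4 replicate 2 it was -0.40. On D1 the order was the other way, with 4.14 ± 0.326 TPM in KO and 3.23 ± 0.575 TPM in WT (0.29, 95% CI -0.25 to 0.83). Hes1 had the same switch of order. On D1 it had 8.76 ± 0.796 TPM in KO and 6.38 ± 1.96 TPM in WT, a difference of 0.44 (95% CI 0.02 to 0.86, adjusted p = 0.873), and without WT D1 replicate 3 it was 0.20. On D4 it had 11.1 ± 1.81 TPM in KO and 16.5 ± 2.94 TPM in WT, a difference of -0.52 (95% CI -0.95 to -0.10, adjusted p = 0.212). Hey1 had on D7 8.55 ± 0.250 TPM in WT muscle and 6.43 ± 1.66 TPM in KO muscle, where the highest KO library, at 7.95 TPM, lay below the lowest WT library, at 8.35 TPM (-0.39, 95% CI -0.86 to 0.09).

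Of the receptors, Notch3 on D4 had 25.0 ± 5.24 TPM in WT and 18.3 ± 1.98 TPM in KO, without overlap (-0.42, 95% CI -0.77 to -0.07, adjusted p = 0.212). Notch1, the receptor of most cell types, had on D1 7.20 ± 2.69 TPM in WT muscle and 12.3 ± 4.59 TPM in KO muscle, with overlap (0.70, 95% CI 0.04 to 1.36, adjusted p = 0.873), and 0.40 without WT D1 replicate 3. Notch2 differed by -0.54 on D4 (95% CI -1.35 to 0.26), and its lowest KO value, 4.4 TPM, came from KO D4 replicate 2, without which the difference was -0.07.

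Of the ligands, Dll1 was the only member whose KO value was below WT on all 4 days. On D4 the WT libraries lay between 10.6 and 10.9 TPM and the KO libraries between 4.81 and 8.77 TPM, a difference of -0.54 (95% CI -1.02 to -0.06, adjusted p = 0.212), and -0.30 without KO D4 replicate 2. Averaged over the 4 days the Dll1 difference was -0.29 (95% CI -0.53 to -0.05, adjusted p = 0.861). An exact permutation test of this average, with libraries exchanged within days, gave a two-sided p of 0.0143 before correction (the smallest it can give is 1.25e-05), and the 9 other members gave 0.199 to 0.84. Dll4 and Jag1 overlapped between genotypes on every day. In all, 0.00636% of genes were called for the average over days and 0% for a genotype difference that varied between days, and no member was in either (limma). Before correction 1 member had a p under 0.05 in each, Dll1 and Hes1, beside 3.54% and 7.65% of all genes.

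Counted by overlap, 3 members had KO and WT libraries that did not overlap on D1, where 6.71% of all tested genes did so. These were Hes1 and Heyl, higher in KO, and Dll1, lower. On D4 there were 4, Notch3, Dll1, Hes1 and Heyl, all lower in KO, where the share of all genes was 14.0%. On D7 there were 4, Notch1, Notch3, Hey1 and Numb, all lower in KO, at a share of 16.5% of all genes, and on D14 there were none, at 8.42%. Most of the genes without overlap on D4 and D7 were lower in KO over the whole table, 1760 of 2196 and 2302 of 2593. With 3 libraries against 3 the exact permutation test within a day cannot give a p below 0.1. The direction on D4 also depended on the scaling, since 4 of the 10 members were higher in KO under median-of-ratios and under quantile scaling, and 2 with the 50 most abundant genes removed. On D7 these numbers were 2, 2 and 0.

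**Figure D3:**
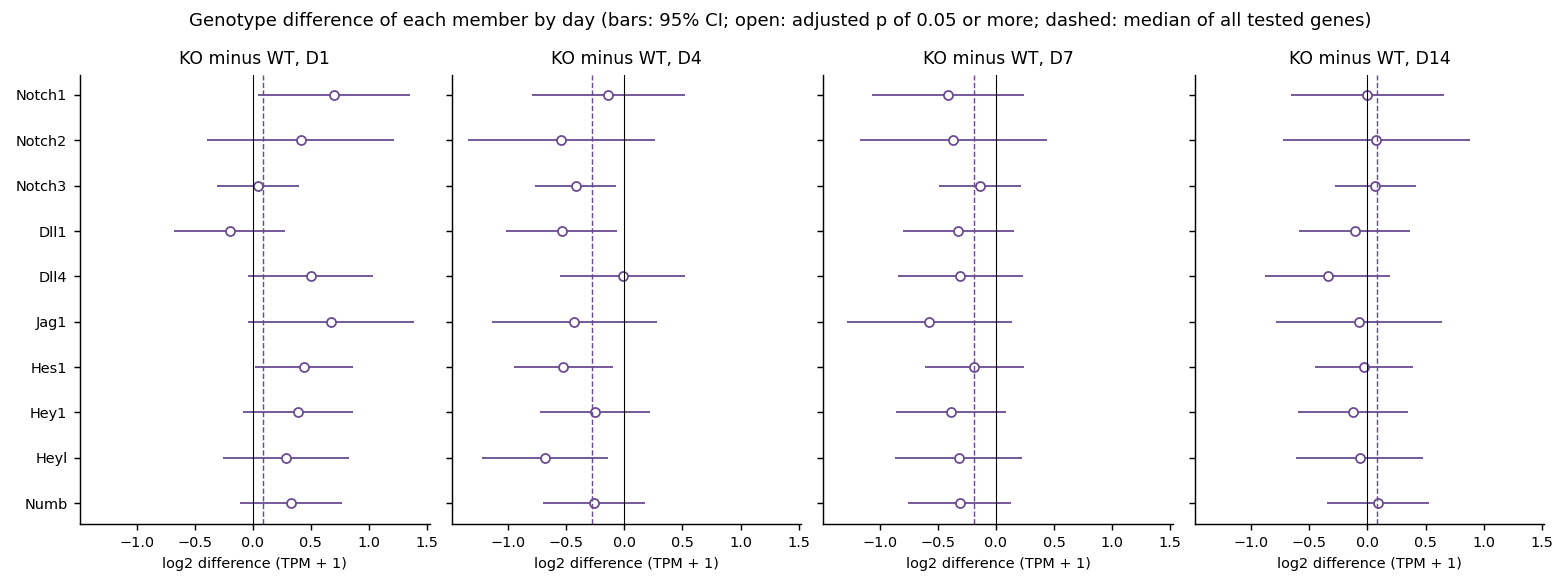
KO minus WT difference on the log2(TPM + 1) scale (x axes) of each member (y axis) on each day, with 95% confidence intervals as bars and dashed lines at the median of all tested genes. All points are open, since no member had an adjusted p under 0.05, and on D4 they lie around the all-gene median of -0.28.

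In the order of the 8 injured groups by mean, few neighbours were distinct. The highest group lay clear of the next without overlap for Heyl, Dll1 and Notch3 (WT D4) and for Hey1 (WT D7). For Hes1 and Heyl the lowest group, WT D1, lay clear below KO D1. For Dll1 the KO D7 group, the 4th highest, also lay clear of the next. All other neighbours in the 10 orders overlapped, and for Notch1, Notch2, Dll4, Jag1 and Numb all 7 neighbouring pairs did. The share of such gaps over all genes was not counted, so the order is a description only.

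Over the 8 group means of log2(TPM + 1) the members fell into sets with like profiles, given here as a description without a test, since all 8 points come from the same 24 libraries. Dll1 and Heyl had a Pearson r of 0.96, Heyl and Hes1 0.92, and Notch3 and Dll1 0.91. Notch1 and Numb had 0.94, and Dll4 and Hey1 0.80, while Dll4 and Dll1, ligands of the same receptors, had -0.08. Of 9618 genes with a mean of at least 5 TPM, those most like Heyl were Selenop (r = 0.998), Ablim3 (0.995) and Pltp (0.992), and those most like Notch3 were Tmem45a (0.997), Rcn3 (0.997) and Vkorc1 (0.996). Dll4 was most like Sox7 (0.946), Gm5831 (0.928) and Tie1 (0.919), the last of which is in the endothelial marker list. Dll1 was most like Tgfb3 (0.988), Gtf2i (0.985) and Rgma (0.983), and Hes1 like Gm12940, Nupr1 and Pdcd4 (0.971 to 0.975). Hey1 was most like Heca (0.964), Adarb1 (0.956) and Btbd3 (0.94). For Notch1 they were Papss2 (0.979), Srsf11 (0.965) and Fam193b (0.949), and for Notch2 Limk1, Rgs10 and Zdhhc9 (0.998 to 0.999). For Jag1 they were Mfap1b (0.99), Khnyn (0.981) and Zfc3h1 (0.977), and for Numb Cpne3 (0.993), Acap2 (0.993) and Ccnl1 (0.992).

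Summed markers of cell types also differed between the days. The members were therefore set against marker lists, per 100 TPM of the summed list. Which cells carried the members was not measured. The 8 mural markers, among them Pdgfrb, Rgs5 and Acta2, summed to 295 to 339 TPM in WT on D1 and 615 to 1068 TPM on D4, and in KO to 301 to 388 and 477 to 633 TPM. No gene of the mural, endothelial or satellite cell lists was at 0 in a group. Acta2, the smooth muscle actin that activated stromal cells also express, made up most of the mural difference, with a mean of 125 TPM on D1 and 583 TPM on D4 in WT. Rgs5 (69.0 and 50.4 TPM), Abcc9 (31.4 and 25.4 TPM) and Myh11 (14.1 and 11.8 TPM) had lower means on D4. Pdgfrb (20.7 and 47.3 TPM), Cspg4 (7.35 and 17.9 TPM), Mcam (41.4 and 54.7 TPM) and Kcnj8 (9.77 and 12.6 TPM) had higher means. The other 7 markers summed to 163 to 213 TPM on D1 and 211 to 236 TPM on D4 in WT, and to 190 to 261 and 170 to 211 TPM in KO. Members were therefore also read per 100 TPM of those 7, a choice made after seeing the data. Per 100 TPM of all 8, Notch3 was at 4.45 ± 0.605 TPM on D1 and 3.17 ± 0.246 TPM on D4 in WT, and at 4.30 ± 0.554 and 3.44 ± 0.275 TPM in KO. Per 100 TPM of the 7 markers without Acta2 the order was the reverse, with 7.34 ± 0.899 TPM on D1 and 11.3 ± 1.70 TPM on D4 in WT and 6.60 ± 0.83 and 9.42 ± 1.60 TPM in KO, without overlap between the days. Whether Notch3 was higher or lower on D4 per mural RNA thus depended on 1 marker. Heyl was higher on D4 by both measures. Per 100 TPM of all 8 it had 1.01 ± 0.151 TPM on D1 and 3.04 ± 0.716 TPM on D4 in WT and 1.22 ± 0.073 and 2.71 ± 0.7 TPM in KO, without overlap between the days. On D4 the KO libraries, from 1.91 to 3.18 TPM, overlapped with the WT libraries, from 2.21 to 3.50 TPM. Per 100 TPM of the 7 they did not, with 4.31 to 9.71 TPM in KO and 10.02 to 11.7 TPM in WT. The mean of Heyl on D4 was instead higher in KO per 100 TPM of satellite cell and myoblast markers. It was 6.69 TPM in KO (4.23 to 10.3 TPM) and 4.59 TPM in WT (3.23 to 5.49 TPM), with overlap. The 10.3 TPM was that of KO D4 replicate 2, whose list sum was only 88.5 TPM. The sums of that list, given below, were themselves lower in KO on D4. The genotype order of the Heyl means on D4 thus depended on the list, and how far it depended on that library was not tested.

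The 9 endothelial markers summed to 253 to 344 TPM in WT on D4 and 338 to 481 TPM on D7. Dll4 per 100 TPM of that list was 1.42 ± 0.0713 TPM on D4, 2.08 ± 0.215 TPM on D7 and 2.43 ± 0.21 TPM on D14 in WT, and 1.51 ± 0.0583, 1.85 ± 0.0136 and 1.65 ± 0.168 TPM in KO. On D14 the lowest WT library, at 2.19 TPM, lay above the highest KO library, at 1.83 TPM, a difference that was not tested. Hey1 by the same measure had 2.07 ± 0.384 TPM on D4, 2.18 ± 0.438 TPM on D7 and 2.51 ± 0.897 TPM on D14 in WT, and those groups overlapped. The 7 markers of satellite cells and myoblasts summed to 427 to 732 TPM in WT on D4 and 88.5 to 362 TPM in KO, the lowest again in KO D4 replicate 2. Dll1 per 100 TPM of that list was 1.70 ± 0.332 TPM on D1 and 2.11 ± 0.544 TPM on D4 in WT, and 1.40 ± 0.119 and 3.39 ± 1.77 TPM in KO, and the WT days overlapped. The highest KO D4 value, 5.43 TPM, was that of replicate 2. Itga7 made up 48.4% of the list's sum in WT on D1. Without it the WT order was the reverse, with 3.35 ± 0.808 TPM on D1 and 3.10 ± 1.01 TPM on D4, again with overlap. KO then had 3.07 ± 0.247 and 6.54 ± 5.17 TPM. What part these cells had in the members' levels was not tested.

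**Figure D4:**
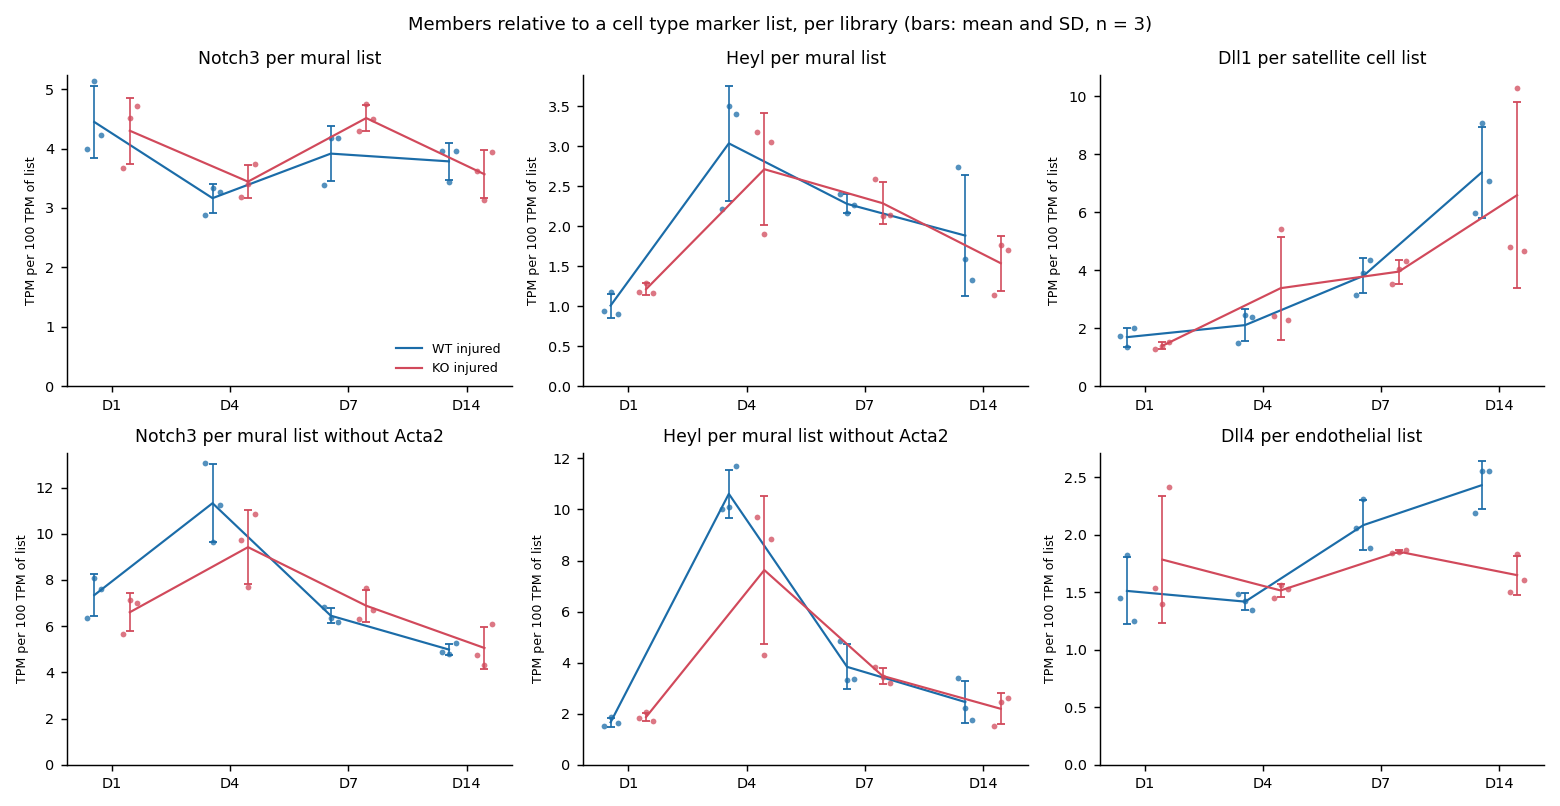
TPM of 4 members per 100 TPM of a summed cell type marker list, with the mural list shown whole and without Acta2 (y axes from 0) by sampling day (x axes), with 1 point per library, lines through group means and bars for 1 SD (n = 3). The mean of Notch3 is lower on D4 than on D1 per whole mural list (3.17 against 4.45 in WT) and higher per list without Acta2 (11.3 against 7.34), Heyl is highest on D4 in both, and Dll4 per endothelial RNA reaches 2.43 in WT on D14 against 1.65 in KO.

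A list of 56 further genes of the pathway, other ligands, modifiers, proteases and nuclear partners, was read beside the members, and 50 of them passed the filter in the injured table and 48 in the table with the control. From WT control to WT D1 30 of the 48 were called higher and 1 lower, with a median of 0.75 against 0.66 for all genes, and under the 3 scalings 6 to 18 were called higher and 3 or 4 lower. Of all tested genes 55.4% were called higher and 5.64% lower, with the shares under the scalings given above. Neurl3, a ubiquitin ligase of the Neuralized family, had the largest rise (2.57, adjusted p = 0.0066), followed by Lfng, a glycosyltransferase that modifies Notch (2.12, adjusted p = 0.00507), and Rbpj (1.74, adjusted p = 0.00444), and these 3 were called under each of the 3 scalings. Rbpj stood at 8.96 ± 1.38 TPM in the control and 35.1 ± 18.5 TPM on D1, and Lfng at 5.84 ± 1.93 and 32.1 ± 19.0 TPM. Neurl1a was the gene called lower (-0.55, adjusted p = 0.0373).

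From D1 to D4 in WT 6 of the 50 were called higher and 1 lower, where 14.6% of all tested genes were called higher and 5.27% lower. Dlk1, a non-canonical ligand known from differentiating myoblasts, rose by 2.95 (adjusted p = 0.00719), Hes6, a Hes family member that promotes differentiation, by 2.90 (adjusted p = 0.000162) and Numbl, the paralog of Numb, by 1.44 (adjusted p = 0.00354). Dtx4, Dtx3 and Aph1b rose by 1.13, 0.71 and 0.58, and Kat2b, an acetyltransferase, fell by 0.37 (adjusted p = 0.0342). Without WT D1 replicate 3 the count was 3 higher and 0 lower, and the 3120 calls over all genes became 2074. In KO 4 were called higher and 3 lower over this step, beside 7.18% and 12.2% of all tested genes. Dlk1 (2.64), Hes6 (1.32) and Dtx1 (0.93) led the rises, and Lfng (-1.54), Rbpj (-1.14) and Notch4 (-0.996), a receptor of endothelium, were the 3 called lower. Without KO D4 replicate 2 the 4 and 3 became 4 and 0, and the 3049 calls over all genes became 2297. Rbpj stood on D1 at 34.9 ± 18.4 TPM in WT muscle and 42.2 ± 8.13 TPM in KO muscle, and at 31.7 ± 10.4 and 20.1 ± 9.64 TPM on D4.

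Later in WT, Hes6 (-1.80), Psen2, a catalytic subunit of gamma-secretase (-0.91), Ncstn, its scaffold (-0.72), and Rfng (-0.45) were called lower from D4 to D7, and none was called higher. Over this step 9.31% of all tested genes were called lower and 3.04% higher. From D7 to D14 25 were called lower and none higher, beside 30.9% and 0.923% of all tested genes. The median was -0.61, against -0.45 for all genes. Dlk1 (-5.59), Neurl3 (-1.68) and Hes6 (-1.35) led the falls, and Neurl1b (-0.48) and Fbxw7 (-0.39) were at the other end. Under the 3 scalings 2 to 10 were called lower and 1 or 2 higher. Dlk1 on D7 was at 151 ± 31.4 TPM in WT muscle and 94.4 ± 62.9 TPM in KO muscle, and at 2.17 ± 0.777 and 1.43 ± 0.161 TPM on D14. In KO none was called from D4 to D7 with all libraries (6 had an unadjusted p under 0.05, and 5 were called lower without KO D4 replicate 2), and Dlk1 (-5.01, adjusted p = 0.00426) was the gene called lower from D7 to D14. Of all genes 0% were called from D4 to D7, and 9.89% had an unadjusted p under 0.05. From D7 to D14 0.477% of all genes were called lower and 0.0827% higher. Between genotypes none of the 50 was called on any day (limma), and before correction 1 gene on D1, 10 on D4 and 2 on D7 had a p under 0.05, with 0 on D14. Of all tested genes 5.38%, 22.7%, 3.06% and 2.06% had one on D1, D4, D7 and D14.

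**Figure D5:**
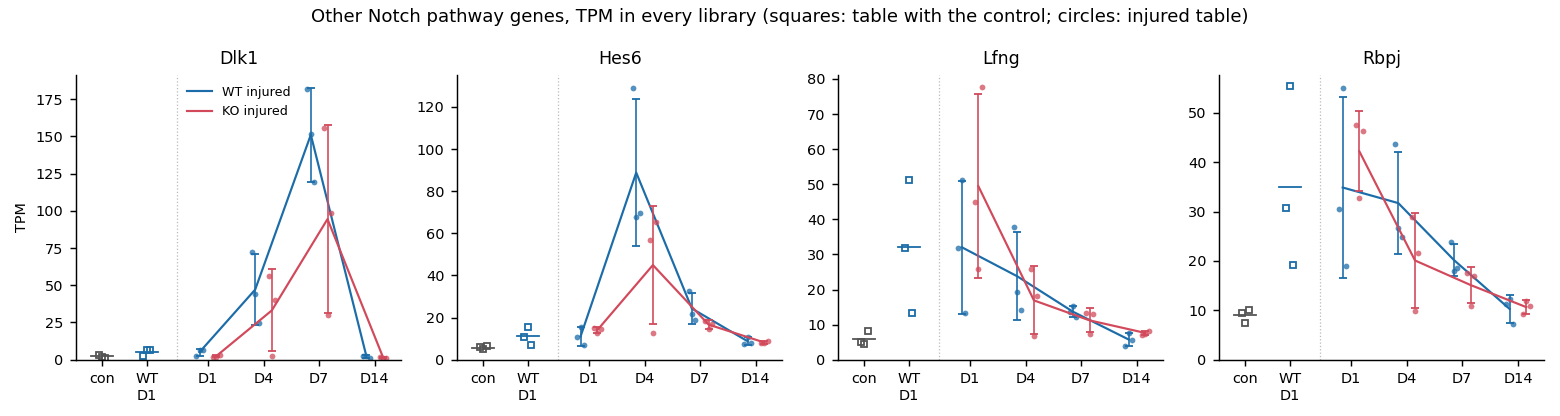
TPM of 4 further pathway genes in every library (y axes from 0) by sampling day (x axes), with WT in blue, KO in red, lines through group means, bars for 1 SD (n = 3) and open squares for the separately quantified WT control and WT D1 libraries. Dlk1 peaks on D7 at 151 TPM in WT, Hes6 on D4 at 88.8 TPM in WT, and Lfng and Rbpj are highest on D1.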

How the data were processed

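Muscle RNA was sequenced by the authors (paired-end libraries), and values were deposited as TPM per gene in 2 tables that were quantified separately, 1 of the 24 injured libraries and 1 of the 3 control and 3 WT D1 libraries. The submitters' notes name mm10 as the genome build; the aligner and quantifier are not given in the sources used here. The WT D1 libraries are in both tables, where member values differed by -11.5% (Numb) to 4.79% (Hey1), so no test crosses the tables. The tables' columns of group means, made by the authors, were not used. The depth per library is not known, so no counting interval is given. Because every library is scaled to the same TPM total, a change in a few abundant genes moves all others.

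Values were taken as log2(TPM + 1) and fitted with limma 3.58.1 (R 4.3.3, trend) over the 8 injured groups, or over the 6 libraries of the other table, without a block, for genes with at least 1 TPM in at least 3 libraries. P-values were adjusted by Benjamini-Hochberg over all tested genes, and an adjusted p under 0.05 was called. A fold on this scale understates low genes. The design text says that each group held biological triplicates but the labels tie no library to an animal. The members, lists and tests were chosen with earlier results of these data known. Genes named were the 10 members, Gsdme, up to 3 highest and 3 lowest called genes of the further pathway list per comparison, and the 3 genes most like each member, and Rfng, Dtx4, Dtx3, Aph1b and other members of counts of 5 or fewer beyond that rule were chosen after their values were seen. Replicate numbers were tested for pairing by the correlation of deviations from group means, and only KO D1 with KO D4 (0.192 to 0.377) and KO D4 with KO D7 (0.13 to 0.442) exceeded 0.1 in every pair; the pairing comes from no label, and the block left those counts at 2 and 0. Fits were tested on simulated data. Alternatives were another pseudocount, other filters and scalings, library weights, the block, fits of the compared libraries alone and leaving out libraries. Figures used matplotlib 3.10.9 and Python 3.11.15.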

Additional observations from a re-analysis of the deposited data

Results flagged for a closer look

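Hes1 and Heyl were higher in every KO library than in every WT library on D1 and lower in every KO library than in every WT library on D4. Of all tested genes 6.71% had no overlap on D1 and 14.0% on D4, and 1760 of the 2196 on D4 were lower in KO. The median of all genes went from 0.09 on D1 to -0.28 on D4. How many genes made the same switch was not counted. For Hes1 the KO minus WT difference was 0.44 on D1 and -0.52 on D4 on the log2 scale, and for Heyl it was 0.29 on D1 and -0.68 on D4. A test that the genotype difference varies between the 4 days gave an adjusted p of 0.527 for both (limma), and the direct test of the D1 to D4 change gave an adjusted p of 0.204 for both. Without KO D4 replicate 2 the D4 difference was -0.46 for Hes1 and -0.40 for Heyl, and without WT D1 replicate 3 the D1 difference was 0.20 and 0.19.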

How the results depend on the processing

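The counts of members called between genotypes were 0 under every alternative. The D1 to D4 count in WT was 4 and stayed within 1.5 times of that under every alternative, and Heyl, Hes1 and Dll1 were called in all 15. The other counts moved. From D1 to D4 in KO the count of 2 became 4 under median-of-ratios scaling and 0 with only the libraries compared, and 1 to 2 with 1 library left out. All-gene calls over this step were 3049 of 15718 in the main fit, 4134 under median-of-ratios scaling and 52 with only the libraries compared. From D4 to D7 in KO it was 0 to 1 with 1 library left out. From control to WT D1 the count of 3 became 1 with the 50 most abundant genes removed, 1 without a filter and 5 with a pseudocount of 0.1, and 0 to 5 with 1 library left out (0 without WT control replicate 2, 5 without WT D1 replicate 3). All-gene calls over this step were 7965 of 13041 in the main fit, 5886 of 12991 without those 50 genes and 6978 of 27019 without a filter. They were 8031 with the pseudocount, 5714 without WT control replicate 2 and 9121 without WT D1 replicate 3. There Dll1 turned to -0.12 under median-of-ratios scaling and -0.27 under quantile normalization, Hey1 to -0.48 and -0.63, and Dll4 and Hes1 to -0.63 and -0.62 under quantile normalization. From D4 to D7 in WT the count of 2 became 1 without a filter, with only the libraries compared, with a pseudocount of 0.1 and with the replicate block, 4 under quantile normalization, and 0 to 1 with 1 library left out. All-gene calls were 1941 of 15718 in the main fit, 1514 of 33258 without a filter and 908 with only the libraries compared. They were 1560 with the pseudocount, 1913 with the block and 2256 under quantile normalization. From D7 to D14 in WT the count of 4 became 1 with the 50 most abundant genes removed, 2 without a filter, 8 with only the libraries compared, 0 under both median-of-ratios and quantile scaling, and 1 to 4 with 1 library left out. All-gene calls were 5000 of 15718 in the main fit, 2780 of 15668 without those 50 genes and 3382 of 33258 without a filter. They were 7940 with only the libraries compared, 2157 under median-of-ratios scaling and 2106 under quantile scaling. The cause was not tested. The replicate block moved no other count by over 1.5 times; it lost the calls of Dll1 from control to WT D1 (adjusted p = 0.152) and from D7 to D14 in WT (0.0607) and of Dll4 from D4 to D7 (0.0588). Library quality weights did not converge in either table, with weights up to 257 in the injured one. They gave 8 members from D7 to D14 in KO and 9 in each of control to WT D1, D4 to D7 and D7 to D14 in WT. All-gene calls with these weights were 7861, 10845, 10595 and 9503 in the same order. The weighted fits are not read as a test. With KO D4 replicate 2 and WT D1 replicate 3 both left out, an alternative chosen after seeing the data, the count was 4 from D1 to D4 in WT, 2 in KO, 1 from D4 to D7 in KO and 0 between genotypes. All-gene calls over those 3 steps were then 2774, 2732 and 2097. A minimum of 5 TPM left 3 members testable in the table with the control.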
